A study of Mus musculus with 4 samples.

Results

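The long mouse genes Epb41l3, Dip2b, Fry, Mical3, Rai14, Scn8a, Tbc1d30, Wdfy3, Frem2 and Pdzd2 were examined for open chromatin in fetal female germ cells with and without Gata2. They are 10 of 21631 coding genes on the autosomes and X, and they were picked because many of their peaks were found in the Gata2WT peak list alone. The values that chose them are thus the counts of such peaks, which are given here as a description with no test. ATAC-seq uses the transposase Tn5 to tag accessible DNA, and it was run on germ cells enriched with beads against SSEA1 from ovaries of female C57BL/6J embryos at E14.5, with about 10000 cells per library. Gata2cKO embryos lacked Gata2 where Cre driven from Prdm1 had deleted a floxed allele, and Gata2WT embryos were the controls, with 2 samples in each group. Fathers were Gata2flox/+ Prdm1-Cre and mothers Gata2flox/flox, so embryos of both groups carried at least 1 floxed allele. The labels state neither whether Gata2WT embryos also carried the Cre nor how many embryos went into a library. The labels call the cells ovarian cells.

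Each genotype had 1 combined peak list, so no value carries a replicate error and no comparison between genotypes was tested. The Gata2cKO list held 44139 peaks and the Gata2WT list 49394 on the autosomes and X. A peak with no overlapping peak in the other list is called cKO-only or WT-only, and all others are called shared. Each peak has a −log10 q, the caller's measure of how far its summit stood above the local background of its own list, and a summit pileup in fragments, which was worked back from the deposited values. Genome-wide, the background stood at 2.01 fragments (Gata2cKO) and 2.19 fragments (Gata2WT), and in both lists 8 fragments was the smallest pileup that passed the authors' threshold at that background. Where the local background was higher, a higher pileup was needed. Absence of a peak from a list means only that no peak was called at the site, not that it was inaccessible. All 8 germ cell marker genes examined, Ddx4, Dazl and Stra8 among them, had a peak at a gene end in both lists. Markers of other ovarian cells had one in both lists at 3 of 6 supporting cell genes, 3 of 4 endothelial genes and 1 of 4 blood and macrophage genes. A further 1 supporting cell gene had one in the Gata2WT list alone, and 0 markers had one in the Gata2cKO list alone; their part in the single-list peaks was not tested.

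An ATAC-seq peak marks a stretch of DNA where the transposase could reach, typically a promoter or a regulatory element. GATA2 is a DNA-binding protein of the GATA family that acts mostly at elements away from promoters, and it is best known from blood stem cells. Long genes hold long introns with room for many such elements. The 10 genes come from several pathways. Epb41l3 (protein 4.1B) ties membrane proteins to the spectrin and actin skeleton, Mical3 encodes an enzyme that oxidises actin, Rai14 an actin-binding protein with ankyrin repeats first found as retinoic acid induced, and Fry a scaffold of NDR kinases. Tbc1d30 encodes an activator of RAB GTPase hydrolysis and Wdfy3 (ALFY) a scaffold for the autophagy of protein aggregates. Scn8a encodes a voltage-gated sodium channel of neurons, Frem2 a basement membrane protein of the FRAS1 complex, Pdzd2 a protein with several PDZ domains, and Dip2b a member of the disco-interacting protein family.

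In the GRCm38.p6 annotation, the genes of the cytoskeleton are Epb41l3 at chr17:69075647-69289991 (214 kb, plus strand), Mical3 at chr6:120931546-121173757 (242 kb, minus strand), Rai14 at chr15:10568971-10719267 (150 kb, minus strand) and Fry at chr5:150118618-150497753 (379 kb, plus strand). Those of membrane traffic and autophagy are Tbc1d30 at chr10:121263819-121351644 (87.8 kb, strand not given) and Wdfy3 at chr5:101832953-102072215 (239 kb, strand not given). The others are Scn8a at chr15:100869863-101045938 (176 kb, plus strand), Frem2 at chr3:53513938-53658593 (145 kb, minus strand), Pdzd2 at chr15:12359711-12739968 (380 kb, minus strand) and Dip2b at chr15:100037626-100219474 (182 kb, plus strand).

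RefSeq (GRCm38.p6) start windows, from 250 bases before to 50 after a transcript start, were at hand for 8 of the 10 genes, 14 windows in all; Tbc1d30 and Wdfy3 had none. Of these 14 windows, 9 lay under a shared peak, 1 under a WT-only peak, 0 under a cKO-only peak and 4 under none. Over all 32619 windows of the table, 43.8% lay under a shared peak, 1.69% under a WT-only peak and 0.929% under a cKO-only peak. The windows of Scn8a and Mical3 are shown because single-list peaks fell on or beside them. The downstream Scn8a window was the one under a WT-only peak, and the upstream Scn8a window lay under a shared peak. The first Mical3 window lay between WT-only peaks on either side with no peak over it in either list, and the second lay under a shared peak. Sequences run 5′ to 3′ on the strand of the gene, and capitals mark matches to the motifs searched.
Scn8a chr15:100936021-100936320 (+ strand): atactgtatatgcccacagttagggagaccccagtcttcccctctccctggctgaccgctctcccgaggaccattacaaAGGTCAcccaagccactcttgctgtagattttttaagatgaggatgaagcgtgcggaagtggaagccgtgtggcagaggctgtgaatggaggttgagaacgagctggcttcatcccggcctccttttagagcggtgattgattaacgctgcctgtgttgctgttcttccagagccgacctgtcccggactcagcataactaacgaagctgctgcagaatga
Scn8a chr15:100870395-100870694 (+ strand): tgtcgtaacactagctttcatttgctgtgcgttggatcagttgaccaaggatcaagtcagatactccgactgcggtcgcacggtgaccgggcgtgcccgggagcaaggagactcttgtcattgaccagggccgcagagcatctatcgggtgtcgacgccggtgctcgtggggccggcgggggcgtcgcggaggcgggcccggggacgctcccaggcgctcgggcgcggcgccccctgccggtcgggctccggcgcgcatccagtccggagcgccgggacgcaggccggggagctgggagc
Mical3 chr6:121081578-121081877 (- strand): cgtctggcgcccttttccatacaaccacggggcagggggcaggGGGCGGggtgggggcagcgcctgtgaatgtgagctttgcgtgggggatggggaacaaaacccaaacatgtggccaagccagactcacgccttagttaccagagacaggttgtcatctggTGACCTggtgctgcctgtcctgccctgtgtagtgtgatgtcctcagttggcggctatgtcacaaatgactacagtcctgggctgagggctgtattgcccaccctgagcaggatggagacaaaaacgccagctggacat
Mical3 chr6:121130973-121131272 (- strand): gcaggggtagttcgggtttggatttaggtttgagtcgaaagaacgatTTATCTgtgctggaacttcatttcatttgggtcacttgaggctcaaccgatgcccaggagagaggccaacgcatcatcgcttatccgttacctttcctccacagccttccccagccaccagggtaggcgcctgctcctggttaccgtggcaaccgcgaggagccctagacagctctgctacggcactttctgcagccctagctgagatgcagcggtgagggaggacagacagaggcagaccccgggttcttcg

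The motifs were searched on both strands: AGATAA as well as AGATAG, and likewise TGATAA as well as TGATAG, for GATA factors, CNCCTCAG for STRA8, AGGTCA as the nuclear receptor core element, CACGTG as the E-box, GGGCGG as the GC box and CCAAT. The WT-only window of Scn8a held 1 core element and no other match, and the shared window of Scn8a held none of the motifs. The Mical3 window flanked by WT-only peaks held 1 GC box and 1 core element, and the other Mical3 window held 1 GATA match. Of the 14 windows, 2 held a GATA match (14.3%, against 29.6% of all windows), 5 a core element (35.7% against 16.2%), 6 a GC box (42.9% against 35.9%), 3 CCAAT (21.4% against 37.6%), 1 an E-box (7.14% against 7.20%) and 0 the STRA8 motif (against 7.99% of all windows). Matches in the printed windows did not overlap one another. A match is a run of letters only, and the windows cover few of the single-list peaks, most of which lay far from any listed start.

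Together the 10 genes held 15 cKO-only peaks among 85 Gata2cKO peaks and 99 WT-only peaks among 168 Gata2WT peaks. As shares these were 17.6% (95% Wilson interval 11.0 to 27.1, counting error only) in the Gata2cKO list, where 19.7% of all peaks were cKO-only, and 58.9% (51.4 to 66.1) in the Gata2WT list, where 28.5% of all peaks were WT-only. All 10 genes had more WT-only than cKO-only peaks, which 48.3% of the 2449 coding genes in their length range (87.8 to 380.3 kb, the 10 included) also had. In the other genes of that range, 24.4% of 10921 Gata2cKO peaks were cKO-only and 33.8% of 12452 Gata2WT peaks were WT-only. Since the 10 genes were chosen on this contrast, nothing is read from these shares beyond the description. Shared peaks are defined by overlap between the lists, so their number is bound to be nearly the same from both sides. It was 70 in the Gata2cKO list and 69 in the Gata2WT list. With the Gata2WT list shortened to the length of the Gata2cKO list by −log10 p, the 10 genes held 17 cKO-only peaks of 85 and 69 WT-only peaks of 136. These shares were 20.0% and 50.7%, against 22.8% and 23.1% over the whole lists. All 10 still had more WT-only peaks, a count not made for other genes at equal lengths. Among peaks with a −log10 q of 5 or more, 3 of 41 were cKO-only and 14 of 60 WT-only (7.32% and 23.3%). Over the whole lists these shares were 4.74% and 7.61%. This level left more WT-only peaks at 6 of the 10 genes, while Mical3 turned round with 2 cKO-only and 1 WT-only peak.

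**Figure D1:**
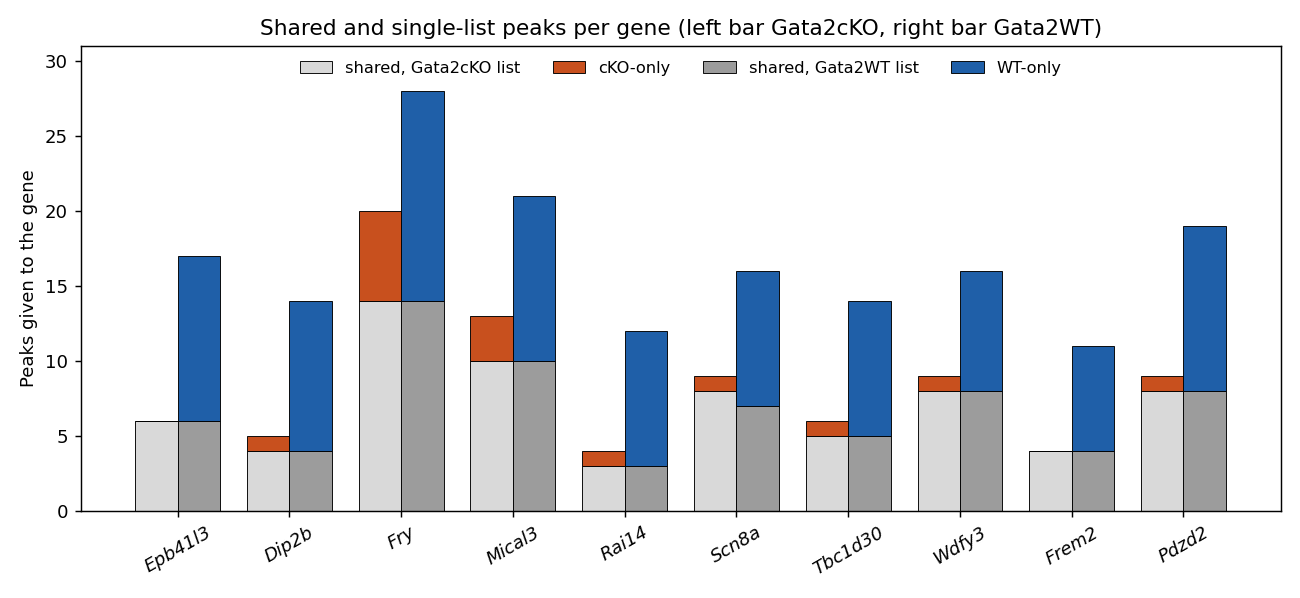
Peaks given to each of the 10 genes (vertical axis, number of peaks), with the Gata2cKO list as the left bar and the Gata2WT list as the right bar of each pair; grey parts are shared peaks and coloured parts are single-list peaks. The grey parts are level or nearly so in every pair because shared peaks are defined by overlap. The coloured parts run from 0 to 6 in Gata2cKO and from 7 to 14 in Gata2WT.

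The members differed in how one-sided they were. Epb41l3 had 0 cKO-only and 11 WT-only peaks, and Frem2 had 0 and 7. Pdzd2 had 1 cKO-only and 11 WT-only peaks, Dip2b 1 and 10, Wdfy3 1 and 8, and Rai14, Scn8a and Tbc1d30 1 and 9 each. Fry and Mical3 were the members with several peaks on both sides, 6 cKO-only and 14 WT-only at Fry and 3 and 11 at Mical3. As a share of a gene's own Gata2WT peaks, WT-only peaks made up from 50% (Fry, 14 of 28, and Wdfy3, 8 of 16) to 75% (Rai14, 9 of 12). With equal list lengths the WT-only count dropped by more than 1.5 times at Epb41l3 (4), Rai14 (4) and Mical3 (7), while Tbc1d30 kept a count of 9. Among the 2439 other coding genes of the length range the median gene had 1 cKO-only and 1 WT-only peak. The lowest counts among the members were 7 at Frem2 and 8 at Wdfy3, and 54 genes outside the set also had 7 or more, so that 2.61% of the length range reached that count; a further 71 had 6. Counted by the difference instead, 9 genes outside the set had at least 7 more WT-only than cKO-only peaks.

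**Figure D2:**
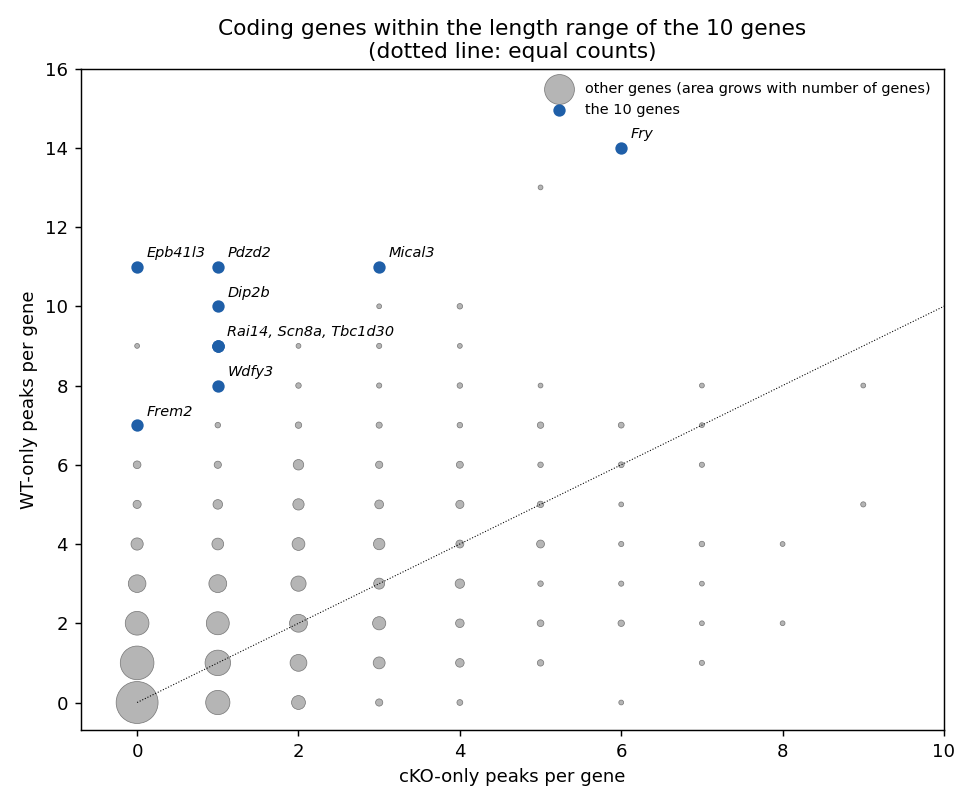
Number of cKO-only peaks (horizontal axis) and WT-only peaks (vertical axis) of each coding gene as long as the 10 genes; grey circles are the other 2439 genes with an area that grows with their number, blue points are the 10 genes, and the dotted line marks equal counts. Epb41l3 and Frem2 stand on the vertical axis with 0 cKO-only peaks, and Fry stands farthest right of the 10 with 6.

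Per length of gene, WT-only peaks were densest at the shortest member. Counted over the annotated gene with 1 kb on either side, WT-only peaks numbered 6.83 per 100 kb at Tbc1d30, 5.99 at Rai14, 5.50 at Dip2b and 5.11 at Scn8a, and 1.67 at Wdfy3, the lowest; cKO-only peaks ran from 0 (Epb41l3, Rai14 and Frem2) to 1.32 per 100 kb (Fry). The median over the 10 genes was 0.484 cKO-only and 4.17 WT-only peaks per 100 kb, against 0 and 0.703 over the other genes of the length range. All peaks together had a median density of 3.26 per 100 kb in the Gata2cKO list and 7.54 in the Gata2WT list at the 10 genes, against 1.91 and 2.22 at the other genes. Among the 10 genes the lowest density was 1.996 per 100 kb in the Gata2cKO list, little above the median of the other genes. In the Gata2WT list the lowest was 4.997. The Gata2WT densities include the WT-only peaks on which the genes were picked, so their height restates that choice.

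Single-list peaks lay mostly inside the genes, and mostly inside in other genes of the length range too. There 1968 of 2668 cKO-only peaks lay inside, 79 at a gene end and 640 outside. For the 4212 WT-only peaks of those genes the counts were 3169, 144 and 936, with some peaks in more than 1 count. Of the 99 WT-only peaks, 86 lay inside the gene more than 1 kb from its ends, 2 at a gene end and 11 outside; of the 15 cKO-only peaks, 13 lay inside, 0 at a gene end and 2 outside. Of 9 Gata2cKO gene-end peaks 0 were cKO-only, which allows a share of up to 33.3%, and of 11 Gata2WT gene-end peaks 2 were WT-only (18.2%, 5.14 to 47.7). In the other genes of the length range 3.64% of 2169 Gata2cKO and 6.44% of 2237 Gata2WT gene-end peaks were single-list. Inside the genes the shares were 18.6% of 70 Gata2cKO peaks and 60.1% of 143 Gata2WT peaks, against 29.8% and 40.7% inside the other genes of the length range. At the 8 genes with a known strand, the gene was divided into 3 equal parts from its 5′ end. WT-only peaks then numbered 34, 20 and 24 of 78, shared Gata2WT peaks 25, 14 and 16 of 55, and cKO-only peaks 1, 6 and 4 of 11. The WT-only and the shared peaks were thus spread in a like way, with 43.6% and 45.5% in the 5′ part. The median distance to the nearest listed start was 50.7 kb for WT-only and 60.4 kb for shared Gata2WT peaks, but 3 of 78 WT-only summits against 11 of 55 shared summits lay within 1 kb of one.

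**Figure D3:**
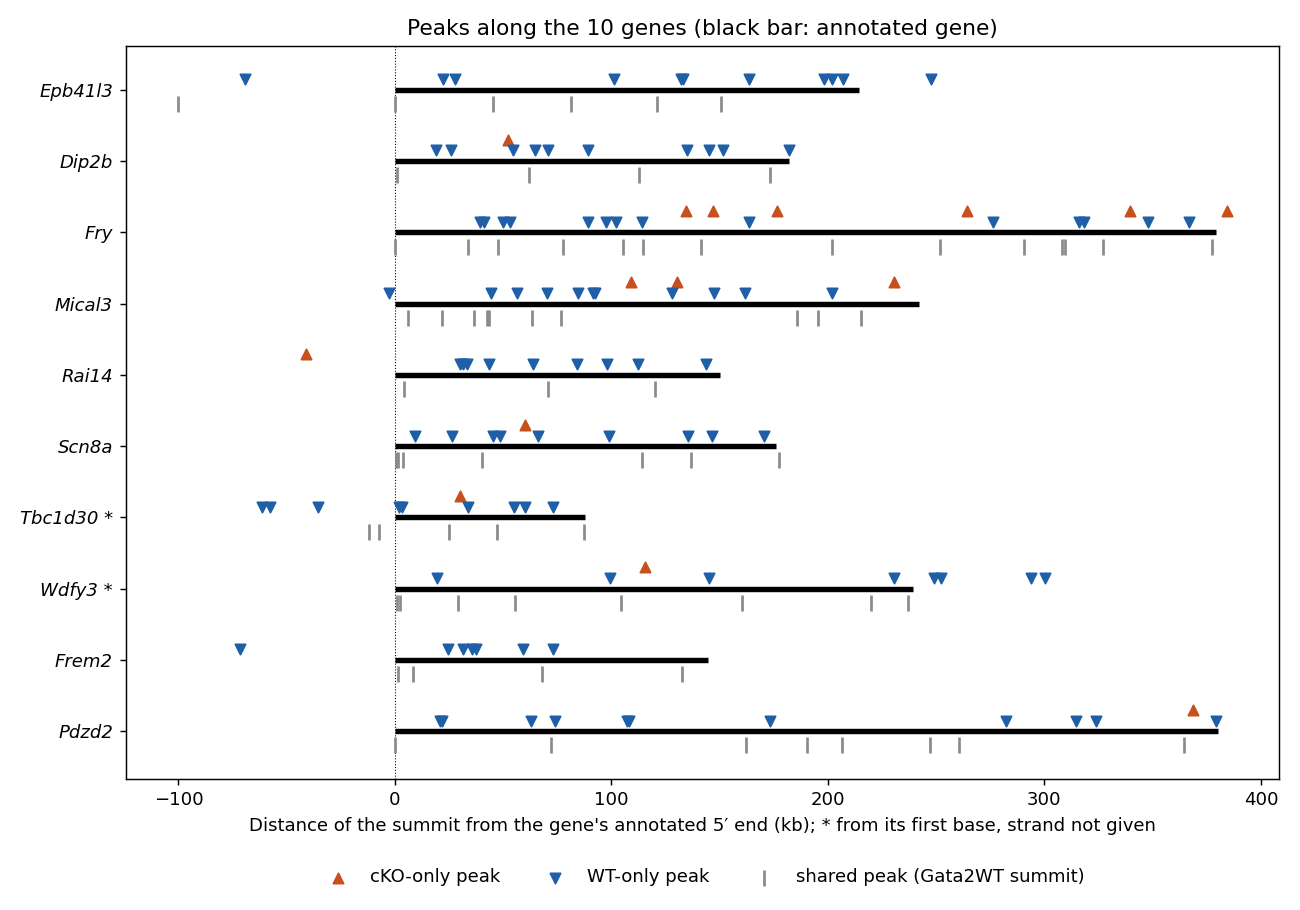
Position of every peak summit along the 10 genes, in kb from the annotated 5′ end (for the starred Tbc1d30 and Wdfy3 from the first base, as their strand was not given), with orange triangles for cKO-only, blue triangles for WT-only and grey ticks for shared peaks, and the annotated gene as a black bar. Blue triangles run along the whole bar at most genes, with 6 within 48.2 kb at Frem2 and 6 within 48.4 kb at Mical3, and beyond the bar at Tbc1d30 and Wdfy3.

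Most WT-only peaks lay some way from any peak of the other list. The median distance from a WT-only peak to the nearest Gata2cKO peak was 12.4 kb, 58 of the 99 lay more than 10 kb from one, 6 lay within 2 kb and 2 within 500 bp. The 15 cKO-only peaks lay a median of 6.24 kb from the nearest Gata2WT peak, with 6 beyond 10 kb and 1 within 2 kb. The genes were picked for Gata2WT peaks without a Gata2cKO peak, and such distances were not counted in other genes. The distances are thus a description only. Several members held unbroken runs of WT-only peaks. At Rai14, 5 consecutive WT-only peaks lay from 10655032 to 10689366 on chromosome 15, within a stretch of 65.4 kb that held no Gata2cKO peak. At Frem2, 5 lay from 53599025 to 53634521 on chromosome 3, within 59.0 kb with no Gata2cKO peak. At Epb41l3, 5 lay from 69239316 to 69323217 on chromosome 17, from inside the gene to beyond its end. At Pdzd2 the longest run was 3 peaks, within 103.2 kb with no Gata2cKO peak. No gene held a run of more than 1 cKO-only peak, but only Fry and Mical3 had more than 1 such peak at all. The genes were picked for many WT-only peaks, and runs in other genes were not counted, so nothing is read from this difference. The runs include weak peaks, down to a −log10 q of 1.27 at Rai14 and 1.37 at Epb41l3, and with equal list lengths Epb41l3 and Rai14 had 4 WT-only peaks each in all, so that their runs of 5 did not remain.

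Nearly all of these peaks were weak, as most single-list peaks of the whole lists were. In −log10 q, the cKO-only peaks ran from 1.70 to 7.55 with a median of 2.45, and the WT-only peaks from 1.11 to 10.8 with a median of 2.71. Shared peaks of the 10 genes had medians of 5.82 in the Gata2cKO list and 7.37 in the Gata2WT list, and reached 80.3 and 89.7. The summit pileup was 9 to 23 fragments at cKO-only peaks (median 10) and 8 to 23 at WT-only peaks (median 11), against medians of 16 and 19 at shared peaks. Of the 99 WT-only peaks, 36 stood on the bare genome background, 32 had a −log10 q under 2, 14 had 5 or more and 1 had 10 or more. Of the 15 cKO-only peaks, 3, 3, 3 and 0 did. Over the whole lists these counts were 6077, 4247, 2220 and 254 of 14060 WT-only peaks. For the 8710 cKO-only peaks of the whole list they were 2863, 2428, 1290 and 145. Over the whole lists the median single-list peak had a −log10 q of 2.88 in Gata2cKO and 2.84 in Gata2WT. WT-only peaks of the 10 genes had a median width of 356 bp, against 359 bp over the whole list.

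Peaks were also grouped by strength. Under a −log10 q of 2, 3 of 10 Gata2cKO peaks were cKO-only (30%, against 62.8% in the other genes of the length range) and 32 of 34 Gata2WT peaks were WT-only (94.1%, against 75.6%). For a −log10 q of 2 to 5, 9 of 34 Gata2cKO peaks were cKO-only (26.5%, against 41.4% in the other genes) and 53 of 74 Gata2WT peaks were WT-only (71.6%, against 54.1%). For 5 to 10 the shares were 3 of 15 (20.0%, against 14.9%) and 13 of 31 (41.9%, against 20.8%). At 10 and over, 0 of 26 Gata2cKO peaks were cKO-only, which allows up to 11.5% (against 1.17% in the other genes), and 1 of 29 Gata2WT peaks was WT-only (3.45%, against 1.75%). These shares belong to the contrast on which the genes were picked.

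**Figure D4:**
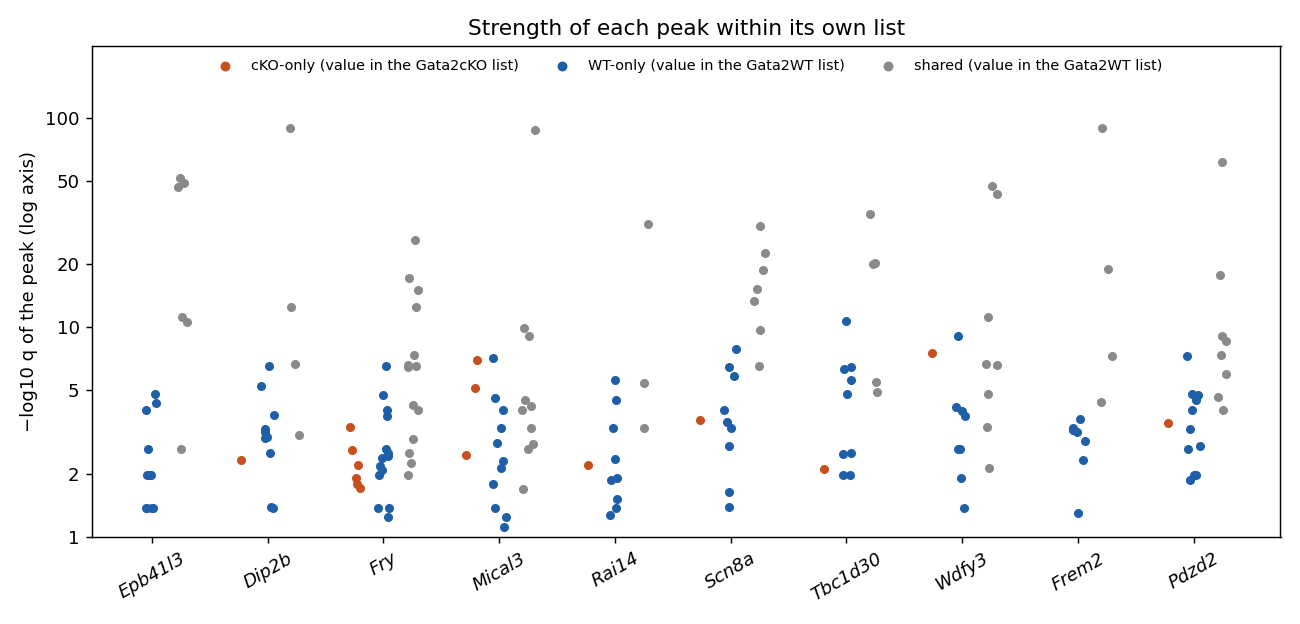
The −log10 q of each peak within its own list (vertical log axis) for the 10 genes, with cKO-only peaks in orange, WT-only peaks in blue and shared peaks in grey at their Gata2WT value. One blue point, at Tbc1d30, lies above 10, each gene has at least 1 grey point above all its blue points, and grey and blue overlap at low values.

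Tbc1d30, whose product acts on RAB8 in membrane traffic and cilium formation, held the strongest WT-only peak of the set. On chromosome 10, inside the gene, it spanned 121297205 to 121297894 and reached a −log10 q of 10.8, a fold enrichment of 5.82 and 23 fragments at its summit. The nearest Gata2cKO peak was the gene's 1 cKO-only peak, 2788 bp away at 121293937 to 121294417, with a −log10 q of 2.10. A further 3 WT-only peaks had a −log10 q above 5, of which 121318418 to 121318752 (6.31) lay inside the gene and 121227959 to 121228258 (6.45) and 121202307 to 121202717 (5.62) outside it. The peak at the gene end, 121350541 to 121351560 in Gata2cKO and 121350454 to 121351593 in Gata2WT, was shared, with a −log10 q of 15.1 and 20.2.

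Wdfy3, on chromosome 5, had WT-only peaks spread thinly inside the gene and 4 more beyond it. The strongest lay at 101977902 to 101978375 with a −log10 q of 9.11 and 18 fragments, 14783 bp from the nearest Gata2cKO peak. The others inside the gene had 4.17, 3.97 and 3.79, and the 4 outside, all between 102081737 and 102133360, had 1.37 to 2.62. Its cKO-only peak, 101948302 to 101948832, was the strongest of the set, with a −log10 q of 7.55 and 17 fragments, within 1 kb of an end of the annotated gene Gm42135. The strongest shared peak of the gene, at 102052612 to 102053649 in Gata2cKO and 102052561 to 102053556 in Gata2WT, had a −log10 q of 34.8 in Gata2cKO and 47.4 in Gata2WT.

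At Scn8a, on chromosome 15, the WT-only peak over the downstream start window lay at 100935934 to 100936498, with a −log10 q of 6.48, 17 fragments and its summit 0.089 kb from the RefSeq start. The gene's cKO-only peak, 100929673 to 100929973 with a −log10 q of 3.61, lay 5961 bp away. The strongest WT-only peak was at 101005212 to 101005512, with 7.84 and 20 fragments, 1128 bp from a Gata2cKO peak. A further one at 100918255 to 100918548 had 5.83. The shared peak over the upstream start had a −log10 q of 10.8 in Gata2cKO and 15.3 in Gata2WT. At the 3′ end, 1 broad Gata2WT peak (101046145 to 101047400, 18.7) overlapped 2 Gata2cKO peaks, with 3.59 and 6.59.

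Dip2b lies on the same chromosome as Scn8a. Its strongest WT-only peaks were at 100182471 to 100182786, with a −log10 q of 6.55, at 100092190 to 100092478 with 5.25 and at 100101966 to 100102346 with 3.82. A weak WT-only peak at 100219602 to 100220053, with 1.39, lay at the 3′ end. The cKO-only peak had 2.31. The shared peak at the 5′ start was among the strongest of the set, with a −log10 q of 79.2 in Gata2cKO and 89.0 in Gata2WT, and a shared peak at 100210200 to 100211083 in Gata2cKO and 100210016 to 100211010 in Gata2WT had 2.70 and 12.5.

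Among the genes of the actin and membrane skeleton, Mical3, on chromosome 6, had its strongest WT-only peak at 121103297 to 121103811, with a −log10 q of 7.15 and 20 fragments, and the next at 121129453 to 121129806 with 4.57, 320 bp from a Gata2cKO peak and 1.45 kb from a RefSeq start. The WT-only peaks flanking the other start window, 121081028 to 121081303 and 121082106 to 121082359, had 4.05 and 1.79, with summits 0.432 and 0.684 kb from the start and the nearest Gata2cKO peak 14538 bp away. Its 3 cKO-only peaks had 6.98, 5.11 and 2.45. The strongest shared peak inside the gene had 80.3 in Gata2cKO and 87.5 in Gata2WT.

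Epb41l3, Rai14 and Fry had weaker single-list peaks. At Epb41l3 the strongest WT-only peaks were at 69277235 to 69277707 (−log10 q of 4.82), 69103416 to 69103690 (4.37) and 69207814 to 69208133 (4.05), while shared peaks lay over 2 of its RefSeq starts with 40.8 and 38.4 in Gata2cKO and 51.3 and 48.9 in Gata2WT. At Rai14 the strongest WT-only peaks had 5.62, 4.51 and 3.29, and 3 others crowded between 10685836 and 10689366 with 1.27 to 2.36; its cKO-only peak, outside the gene, had 2.19. The shared peak over a Rai14 start had 23.1 in Gata2cKO and 30.96 in Gata2WT. Fry, on chromosome 5, had the most peaks of both kinds. Its WT-only peaks reached 6.51 (150171579 to 150172105), 4.73 and 4.05, and 8 of the 14 lay between 150157807 and 150232692; its 6 cKO-only peaks, from 150253116 onward, had 1.70 to 3.32. The shared peak at the Fry 5′ end had 27.8 in Gata2cKO and 26.1 in Gata2WT.

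Frem2 and Pdzd2, the genes of the extracellular matrix and of a PDZ scaffold, differed in how their WT-only peaks were spaced. At Frem2, 6 of the 7 lay inside the gene between 53585541 and 53634521, all with a −log10 q of 2.33 to 3.65, and the other lay outside the gene with 1.30. At Pdzd2, on chromosome 15, the 11 were spread over the gene with a median gap of 32.8 kb, the strongest at 12425218 to 12425765 with 7.31 and 16 fragments, and the next with 4.81 and 4.74. A Pdzd2 WT-only peak at the 3′ end, 12360498 to 12360811, had 2.71. The cKO-only peak of Pdzd2 had 3.49. The shared peaks at the 5′ starts had 51.4 in Gata2cKO and 89.7 in Gata2WT at Frem2, and 59.5 and 61.6 at Pdzd2.

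Sites with a peak in both lists showed values on either side of equality. Of 69 shared sites of the 10 genes, the −log10 q was lower in the Gata2cKO list at 46 (66.7%), and of all 35334 shared Gata2WT peaks it was lower at 64.9%. The lists were not scaled to each other, so this is a description of 2 lists and not of a change. The medians were 5.93 in Gata2cKO and 7.37 in Gata2WT at these 69 sites, and 10.4 and 11.7 over all shared peaks.

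**Figure D5:**
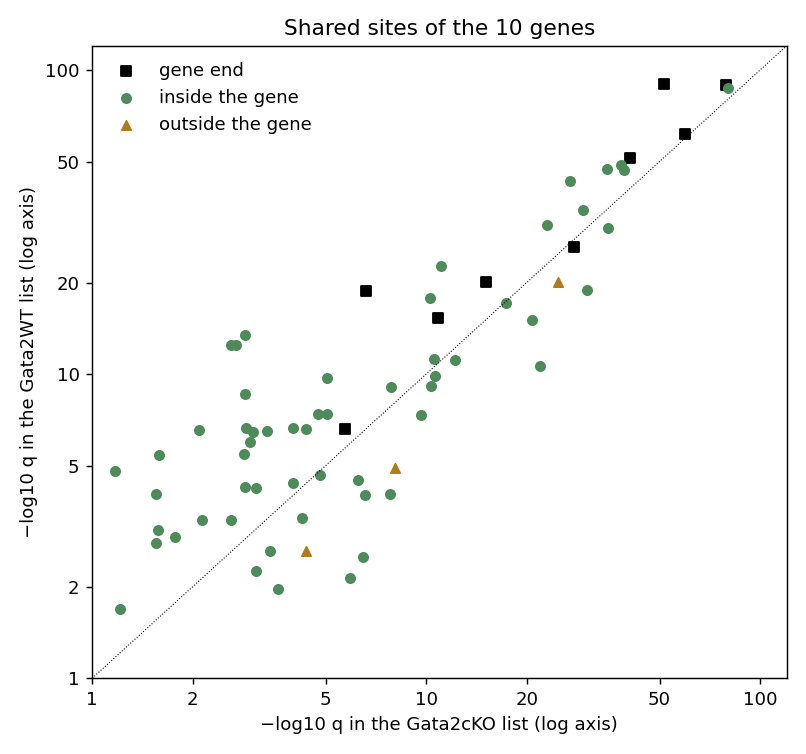
The −log10 q of each of the 69 shared sites in the Gata2cKO list (horizontal log axis) and the Gata2WT list (vertical log axis), with squares for gene ends, circles for sites inside a gene and triangles for sites outside; the dotted line marks equal values. Points lie on both sides of the line, 46 of them above it.

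The surroundings of the genes were counted in the same way. Among peaks within 500 kb of the genes but not given to any of them, 81 of 316 Gata2cKO peaks were cKO-only (25.6%, 21.1 to 30.7) and 93 of 330 Gata2WT peaks were WT-only (28.2%, 23.6 to 33.3), where the whole lists had 19.7% and 28.5%. Single flanks varied with few peaks: around Fry, 10 of 25 Gata2cKO and 16 of 31 Gata2WT peaks were single-list, and around Epb41l3, 1 of 10 and 2 of 11. Of the 10 genes 4 lie on chromosome 15, where 18.5% of Gata2cKO and 29.0% of Gata2WT peaks were single-list. Some single-list peaks also touched another annotated gene: 3 of the 15 cKO-only and 4 of the 99 WT-only peaks lay within 1 kb of an end of one, and 4 cKO-only and 7 WT-only peaks lay inside one, with some peaks in both counts.

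Relatives of the 10 genes, 47 genes of the same protein families, were counted in the same way. They held 51 cKO-only peaks among 226 (22.6%) and 94 WT-only among 269 (34.9%). At the 10 genes the shares were 17.6% and 58.9%, and over the whole lists 19.7% and 28.5%. In the other coding genes of the length range they were 24.4% and 33.8%, though not all relatives lie within that range. More WT-only than cKO-only peaks were found at 25 of the 47 relatives, equal numbers at 17 and fewer at 5. Of the 2439 other genes in the length range, 1174 had more (48.1%), 793 had equal numbers and 472 had fewer. Fryl, the other furry gene, had 2 cKO-only and 8 WT-only peaks, and Magi1, a multi-PDZ scaffold, had 4 and 9. Fras1, whose product works with FREM2 in the basement membrane, had 0 and 3. Epb41l1 had 1 and 5, while Epb41l4a had 6 and 6 and Uaca 4 and 4, and Tbc1d8 had 4 and 1.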

How the data were processed

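ATAC-seq peak lists of germ cells from Gata2cKO and Gata2WT fetal ovaries (4 samples, 2 per genotype) were used. Per the submitters' processing notes, the tools were Trimmomatic 0.39, MACS2 2.2.6, bedtools 2.29.2, Picard 2.23.0, SAMtools and Bowtie2 2.3.5.1, with the build GRCm38 (mm10); the sources used here give neither the parameters, the Tn5 shift nor how replicates were combined. The deposited fold enrichment of a peak is the ratio of its summit pileup to the local background of its own list, with the same constant added to both. The deposited −log10 p and −log10 q rate that pileup against the background, and the deposited score is 10 times the −log10 p. All of these are the authors' values and were not scaled between genotypes. Where values of a shared site are set side by side, they describe the 2 lists and measure no change.

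Rows with 1 interval were merged to their strongest summit (Gata2cKO 52236 rows to 44139 peaks, Gata2WT 58357 rows to 49394, autosomes and X). Peaks that met over 1 bp or more were shared. Peaks within 1 kb of a gene's body were given to it, as were peaks whose nearest coding gene end, within 100 kb, was the gene's. Pileups were solved from fold enrichment and −log10 p (whole within 0.001 for 99.99% of peaks of each list). Overlap, assignment and pileup steps were tested on simulated data. Genes, strands and start windows came from RefSeq GRCm38.p6. Python 3.11.15, pandas 2.3.3, SciPy 1.17.1 and statsmodels 0.14.6 were used. The deposited lists give no number of reads per sample; intervals and the limit allowed by a count of 0 (3 counts) cover counting error only. All 10 genes are named by rule; per gene, gene-end, strongest shared, 3 strongest WT-only and 2 strongest cKO-only peaks may be given, and relatives with at least 3 single-list peaks; other peaks were named after their values were seen. Genes, lists and rules were chosen with earlier results of these data known. Alternatives covered the overlap rule, peak threshold, list length, row merging and gene window.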

Additional observations from a re-analysis of the deposited data

How the results depend on the processing

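All values here rest on 1 combined list per genotype, so leaving out a replicate could not be run. No paired analysis was possible because the lists carry no replicate columns and no result comes from a test. The count of WT-only peaks ran from 69 to 107 and the count of cKO-only peaks from 13 to 24 over all alternatives but 1. In these all 10 genes had more WT-only than cKO-only peaks. The genes were picked for many WT-only peaks and the same 2 lists were recounted, so this could hardly come out otherwise. How many other genes had more WT-only peaks was not counted under the alternatives. The exception counted only peaks whose −log10 q reached 5. It left 3 cKO-only peaks of 41 and 14 WT-only peaks of 60. These shares were 7.32% and 23.3%, against 4.74% and 7.61% over the whole lists. More WT-only peaks remained at 6 of the 10 genes, a count not made for other genes at this level. At that level Mical3 turned round (2 cKO-only, 1 WT-only), Wdfy3 had 1 of each, and Epb41l3 and Frem2 had 0 of each. When a reciprocal overlap of 50% was required for a shared peak, 24 peaks were cKO-only. Within the gene and 1 kb on either side, gene ends included, lay 88.9% of WT-only peaks, a share not worked out for other genes. This share was 94.5% with both lists held to a −log10 q of at least 2. It was 94.6% with other peaks taken within 50 kb only, which follows from fewer outside peaks. For single genes, 3 of 20 counts moved by more than 1.5 times with equal list lengths and 16 of 20 at that stricter level of 5. The reciprocal overlap moved 3 (cKO-only peaks were 11 at Fry, 3 at Scn8a and 2 at Pdzd2), a −log10 q of at least 2 moved 2 (WT-only peaks were 4 at Epb41l3 and 5 at Rai14), the gene body alone moved 2 (0 cKO-only at Rai14, 4 WT-only at Wdfy3) and summits within 250 bp moved 1 (2 cKO-only at Pdzd2). At 8 to 23 fragments, most single-list peaks stood near the smallest pileup that could be called.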
